A study of Arabidopsis thaliana with 4 samples.

Results

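The genes described here are the nuclear microRNA genes of Arabidopsis thaliana numbered MIR156 to MIR408. They were picked by symbol alone, as annotated microRNA genes whose number falls in that range, and 108 of the 326 microRNA genes in the nuclear gene table met that rule. MicroRNAs are short RNAs cut from a folded precursor by the enzyme DCL1 and loaded into the protein AGO1, which they guide to matching messenger RNAs. In plants they mostly cut messages of transcription factors and of nutrient and stress proteins, and many families are shared across land plants. The range also takes in families known mainly from Arabidopsis and its relatives (such as miR158, miR161, miR163, miR173 and miR391), so "conserved" does not hold for every gene. What the table annotates as the gene is close to the precursor, with a median length of 124.5 bp (68 to 411). The strand and the start sites of the primary transcripts were not used here, so a flank cannot be called a promoter.

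Binding of ANAC060, a NAC-domain transcription factor linked to the sugar and abscisic acid response, was read from sequenced chromatin precipitates of whole 10-d-old seedlings of ecotype Columbia (Col-0), kept at 22 °C in constant light on agar medium. The plants were anac060 mutants that carry 35S:ANAC060-GFP, in which the constitutive 35S promoter drives the fusion in cells that may not make ANAC060 themselves. An anti-GFP antibody was used, 1 precipitate was made from plants on 6% glucose and 1 from plants without glucose, and wild type input DNA of each treatment was the control. The protocol also names 6% sorbitol without saying which plants received it. A precipitate of plants without the tag was not used here.

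The values are 2 peak lists with the authors' own MACS score per peak, 2859 peaks for glucose with scores from 30.02 and 4155 for no glucose with scores from 100.01. Scores rank peaks within a list. Because the lists start at different scores and each rests on 1 precipitate, a peak missing from one of them is not an absence of binding, nothing below has a replicate check, and read depth is unknown. A peak lay over ANAC060 itself in both lists, at 171.1 with glucose (rank 283) and at 3100 without (rank 1). The plants carry ANAC060 sequence in the transgene, whereas the input was wild type. Binding at this gene therefore cannot be told apart from extra copies of its sequence.

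Few of the microRNA genes carried a peak. A peak touched the gene or its 1 kb flanks at 12 of 108 genes in the glucose list (11.1%, exact 95% binomial interval 5.87 to 18.6) and at 14 of 108 in the no-glucose list (13.0%, 7.27 to 20.8). Over the 27444 nuclear protein-coding genes the same rule gave 18.1% and 25.5%. A protein-coding gene is much longer than a precursor and offers a wider target, so windows of like width are the closer background. Adjoining genome tiles of 2124 bp, the width of the median microRNA gene with its flanks, were touched in 9.57% of cases with glucose and 14.3% without. The lower-coordinate ends of protein-coding genes, in windows of that width, reached 12.3% and 17.4%. The 218 microRNA genes outside the number range reached 10.6% and 12.8%. The shares at MIR156 to MIR408 were thus near those of tiles and of other microRNA genes, and the intervals take in all these narrow-window values. Other short genes had higher shares, at 14.3% and 24.4% of 287 snoRNA genes and 15% and 19.8% of 625 tRNA genes. Of these values only the 24.4% lies outside the intervals of MIR156 to MIR408.

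**Figure D1:**
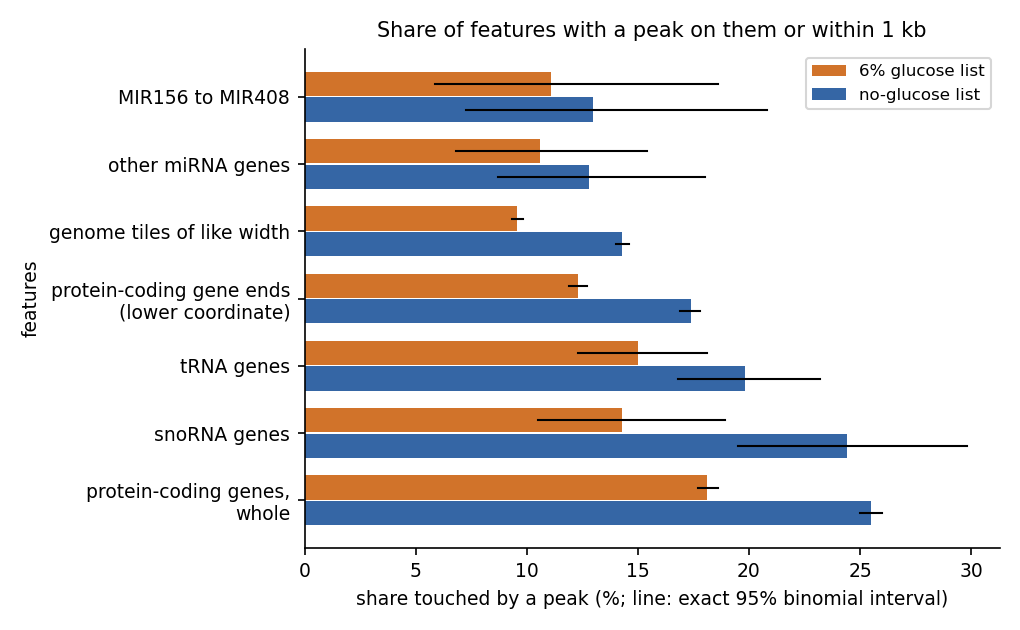
Share of features (%, x axis) with a peak on them or within 1 kb, in the glucose list (orange) and the no-glucose list (blue). Lines are exact 95% binomial intervals, which cover counting error only. The bars of MIR156 to MIR408 (11.1% and 13.0%) end close to those of the other microRNA genes (10.6% and 12.8%) and the genome tiles (9.57% and 14.3%), and short of those of whole protein-coding genes (18.1% and 25.5%).

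A peak in at least 1 list was found at 18 genes (16.7%, against 16.8% of tiles and 29.7% of protein-coding genes), and in both lists at 8 (7.41%, against 7.12% of tiles and 13.9% of protein-coding genes). The 8 genes in both, MIR156h, MIR158a, MIR159a, MIR163, MIR170, MIR398a, MIR398b and MIR408, were 66.7% of those in the glucose list and 57.1% of those in the no-glucose list. A further 4 were in the glucose list alone (MIR166g, MIR169h, MIR398c and MIR405a) and 6 in the no-glucose list alone (MIR159c, MIR168a, MIR168b, MIR391, MIR397b and MIR399c). The remaining 90 genes had no peak in either list. Some of the 108 windows overlap, as in the MIR169 and MIR395 clusters. They joined to 99 regions, and no peak served more than 1 of these genes.

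With miR156 and miR157, miR165 and miR166, and miR170 and miR171 counted together, 14 of 34 families had a gene with a peak. The other 20 families, with 43 genes, had none in either list: miR160, miR161, miR162, miR164, miR167, miR172, miR173, miR319, miR390, miR393, miR394, miR395, miR396, miR400, miR401, miR402, miR403, miR404, miR406 and miR407. In the largest families a peak in either list was found at 1 of 14 genes for miR156 with miR157, 1 of 14 for miR169 and 1 of 9 for miR165 with miR166. At these sizes such counts are not far from the 16.8% of tiles and 16.1% of other microRNA genes, and some miR169 windows overlap. MiR398 had a peak at each of its 3 genes and miR168 at both of its 2. Of the 15 genes in families known mainly from Arabidopsis and its relatives, 4 had a peak in either list, and of the 93 others 14, or 26.7% against 15.1%; this grouping was made after the values were seen.

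**Figure D2:**
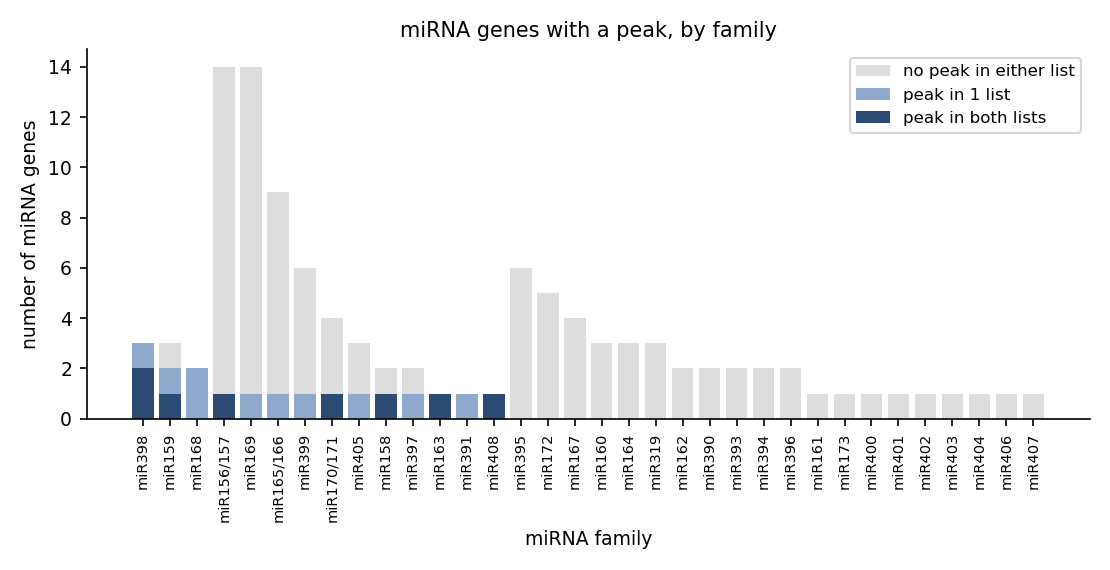
Number of microRNA genes per family (y axis) with a peak in both lists (dark blue), in 1 list (light blue) or in neither (grey). MiR398 has a peak at 3 of 3 genes, whereas the largest families, miR156 with miR157 and miR169, have it at 1 of 14 each.

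Among the families that act on developmental transcription factors, the highest score was at MIR156h in the no-glucose list and at MIR170 in the glucose list. MiR156 holds down SPL factors and with them the change from juvenile to adult growth. The MIR156h peak (chromosome 5, TAIR10, 22597027 to 22598666 without glucose and 22596642 to 22598576 with it) had a score of 65.9 with glucose and 285 without, the highest score at any of the 108 genes in the no-glucose list. It covered 85.8% of the gene without glucose and all of it with glucose. It also touched AT5G55840 in both lists, and AT5G55830 with glucose. MIR170, whose product acts on HAM factors of the shoot meristem, had 195 with glucose, the highest at any of these genes in that list, and 244 without (26409412 to 26411582 and 26409579 to 26411681). The centres of these peaks lay 1129 and 996 bp from the middle of MIR170, inside the sulfurtransferase gene STR16. Both peaks touched ATGRIP as well. The glucose peak reached only 3.23% of MIR170.

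MiR159 lowers MYB33 and MYB65, which relay gibberellin and abscisic acid signals in seeds. At MIR159a each list held 2 peaks, with their centres to either side of the gene (chromosome 1). Those at lower coordinates, 27711181 to 27712604 with glucose and 27711219 to 27712500 without, scored 36.1 and 152, touched no protein-coding gene and no protein-coding flank, and lay over the noncoding gene AT1G09865. Those at higher coordinates, 27712757 to 27715170 and 27713577 to 27715531, also touched CDKD1;1, a gene of a cyclin-dependent kinase. The glucose one stood at rank 284, next below ANAC060 in that list, and the no-glucose one scored 157.4 at rank 2488. Only the glucose peak of that pair covered MIR159a itself. MIR159c had a single no-glucose peak of 132 with its centre 1124 bp away in LRB1, and MIR159b had none.

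The remaining peaks at families that target transcription factors were beside the microRNA gene and not on it. MIR166g, of the family that shapes leaf polarity through HD-ZIP III factors, had a glucose peak of 61.7 centred 1714 bp away by AT5G63710. MIR169h, of the family that targets NF-YA subunits, had a glucose peak of 49.7 centred 1854 bp away near 2 snoRNA genes and AT1G19380. Neither peak touched the microRNA gene.

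MiR168 feeds back on the microRNA pathway by cutting the AGO1 message. Both of its genes had a no-glucose peak that covered the whole annotated gene. MIR168a (chromosome 4, 10577625 to 10579157) had a score of 166.3, and MIR168b (chromosome 5, 18358304 to 18359813) had 125. Both scores were below the list's median of 180. Of all genes in the table, MIR168a and MIR168b were the nearest to the centres of their peaks, at 244 and 148 bp. The MIR168a peak touched no protein-coding gene, and that of MIR168b touched AT5G45310. Neither gene had a glucose peak.

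Copper microRNAs, miR397, miR398 and miR408, spare copper when it is scarce by lowering laccases, the superoxide dismutases CSD1 and CSD2 and plantacyanin. Of the 6 genes in these families 5 had a peak in at least 1 list, 4 in each list, whereas 13 of the 102 others had one (83.3% against 12.7%). This grouping was chosen after the values were seen and is given as a count. All 6 genes lie within 1 kb of a protein-coding gene. Of all the microRNA genes described here in that position, these 6 included, 28.6% had a peak in either list. MIR408 (chromosome 2, 19318434 to 19320461 with glucose and 19318435 to 19320201 without) scored 93.8 and 136, and both peaks also touched AT2G47010 and AT2G47020. MIR398a (chromosome 2, 1039328 to 1041054 and 1039912 to 1041323) scored 39.4 and 106, under peaks that touched NRP1 as well. These peaks cover the MIR408 and MIR398a genes in full, and the MIR408 gene itself overlaps AT2G47020.

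MIR398b (chromosome 5, 4690002 to 4691704 with glucose and 4689003 to 4691402 without) scored 32.8 and 167.1. It overlaps AT5G14550, and its no-glucose peak also touched AT5G14540. Both peaks lay over the spliceosomal RNA genes U2.17 and U5.10, members of multicopy gene sets. The sources used here do not say how reads from such repeated genes were placed. MIR398c had a glucose peak alone, of 95.1 (4694959 to 4697079), which began 151 bp from it and was centred in the nitrate transporter gene NRT2.7. MIR397b had a no-glucose peak of 106 (chromosome 4, 7876769 to 7878335) that ended 317 bp from it and covered another copper microRNA gene, MIR857, together with AT4G13550. MIR397a had no peak within 30 kb in either list.

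Of the other nutrient families, miR399, which raises phosphate uptake by lowering PHO2, had a peak at 1 of 6 genes, and miR395 of sulfate assimilation had none at 6. The MIR399c peak (chromosome 5, 24962598 to 24964142, no glucose) scored 109, touched no protein-coding gene and met only the highest-coordinate base of MIR399c. Read with starts counted from 0, it would begin 1 base beyond the gene. MIR163, whose product acts on methyltransferase genes, had 60.5 with glucose and 120 without, from peaks centred in the DNA ligase gene LIG6. The no-glucose peak covered MIR163 in full, whereas the glucose peak began 80 bp from it. MIR158a had 52.3 and 229, with its gene covered in full in both lists and AT3G10750 under the same peaks. The no-glucose peak also touched ASD1, the nearest gene to its centre. MIR391 had a no-glucose peak of 116 centred in the SUMO ligase gene SIZ1, and MIR405a a glucose peak of 59.4 centred 265 bp from the auxin repressor gene IAA8.

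**Figure D3:**
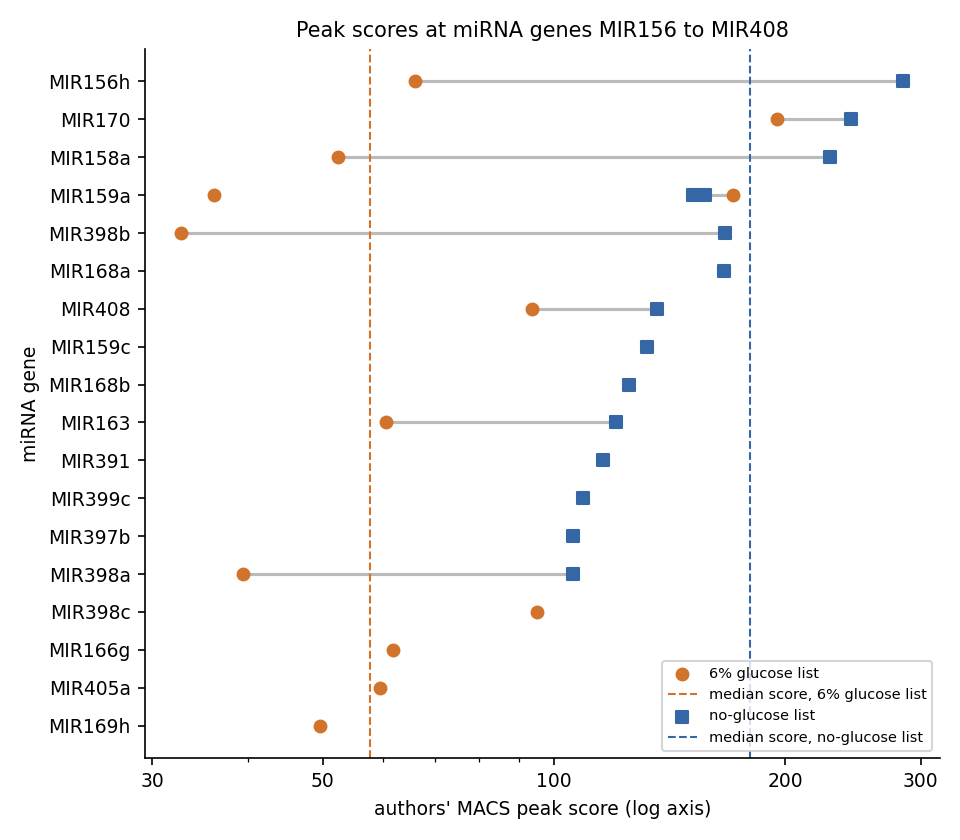
Authors' MACS score (log axis) of every peak at the 18 microRNA genes with a peak, in the glucose list (orange circles) and the no-glucose list (blue squares), with lines joining the higher score of each list at genes found in both. Dashed lines are the median scores of the whole lists, 57.6 and 180; 12 of the 15 no-glucose peaks lie below theirs, and at MIR159a alone the higher glucose score exceeds the no-glucose ones.

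The peaks at these genes were of middling to low rank. In the glucose list 13 distinct peaks scored 32.8 to 195 with a median of 60.5, beside 57.6 for the whole list, and their median percentile, the share of the list with a lower score, was 53.0. In the no-glucose list 15 distinct peaks scored 106 to 285 with a median of 136, beside 180 for the whole list, and their median percentile was 28.8. Above the list median stood 8 of the 13 glucose peaks but only 3 of the 15 no-glucose peaks, those at MIR156h, MIR170 and MIR158a. Only the MIR170 and the higher MIR159a peak of the glucose list passed the 90th percentile of their list. Their median widths were 1935 bp with glucose and 1545 bp without, beside 1674 and 1785 bp over the lists.

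Glucose and no-glucose peaks overlapped in 9 pairs at the 8 genes found in both lists. The no-glucose score was 0.92 to 5.10 times the glucose score, with a median of 2.69, beside 3.50 over all 2151 overlapping pairs of the lists. For glucose scores under 100 a ratio above 1 was fixed by the start of the no-glucose list. In 2 of the 9 pairs the glucose score was 100 or more. At MIR170 the ratio was 1.25 and at the higher MIR159a pair 0.92, beside a median of 2.18 over the 645 such pairs, 11.0% of which had the higher score with glucose. Percentiles put the glucose peak higher in 5 of the 9 pairs, most of all in that MIR159a pair, at 90.1 against 40.1, and at MIR408, at 74.1 against 28.8. They put the no-glucose peak higher at MIR398b, at 44.4 against 8.50, and at MIR158a, at 65.1 against 43.3. Over all overlapping pairs the glucose percentile was the higher in 38.9%.

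Peak centres lay beside the annotated microRNA genes. None of the 28 centres fell inside the microRNA gene, whose length is small beside that of a peak, and 8 fell inside a protein-coding gene. The shares of all peaks with centres so placed were not counted, so these numbers have no background beside them. The centre was 226 to 1854 bp from the middle of the gene with glucose (median 1046) and 209 to 1522 bp without (median 828). A peak touched the annotated gene itself at 8 genes with glucose (7.41%) and at 10 without (9.26%). Beside these stood 5.19% and 8.01% of tiles of 124 bp, and 7.80% and 10.1% of the other microRNA genes. At 6 genes, MIR159c, MIR166g, MIR169h, MIR391, MIR397b and MIR398c, a flank alone was touched. The microRNA gene was the nearest annotated gene to a centre at 6 genes, MIR158a, MIR159a, MIR168a, MIR168b, MIR398a and MIR399c. No background was counted for this number either.

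**Figure D4:**
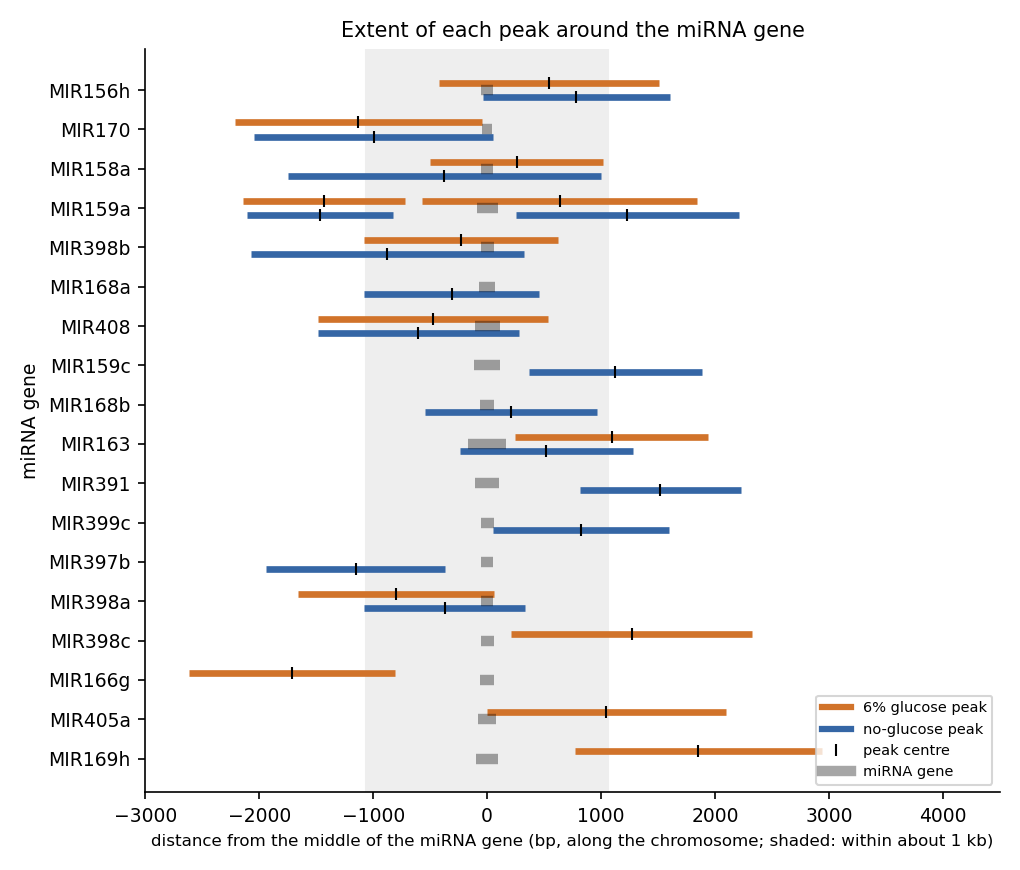
Extent of each peak (coloured bars; black ticks, centres) around the middle of the microRNA gene (grey block), in bp along the chromosome, with the zone within about 1 kb shaded. Peaks at MIR158a, MIR168a, MIR168b and MIR408 span the gene, whereas those at MIR166g, MIR169h and MIR391 touch the edge of the zone only.

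A protein-coding neighbour lay under nearly all of these peaks. Of 28 peaks, 24 touched a protein-coding gene, 7 of them touching 2. The peaks without one were the 2 lower-coordinate peaks of MIR159a and those of MIR168a and MIR399c, 1 of 13 glucose and 3 of 15 no-glucose peaks. Over the whole lists 8.50% of glucose and 7.53% of no-glucose peaks touched no protein-coding gene. The peaks of MIR168a and MIR399c still had a protein-coding gene in reach of 1 kb. Which gene a peak belongs to cannot be told apart from positions.

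Having a peak went with having a protein-coding gene close by. A protein-coding gene was at most 1 kb away for 14 of the 18 genes with a peak (77.8%) and for 35 of the 90 without (38.9%). The median distance to the nearest protein-coding gene was 431 bp and 1361.5 bp. A peak in either list was found at 2 of 10 genes that overlap a protein-coding gene (20.0%), at 12 of 39 that lie 1 to 1000 bp from one (30.8%, 17.0 to 47.6) and at 4 of 59 that lie farther (6.78%, 1.88 to 16.5). Tiles in the same 3 positions had 19.3%, 21.2% and 7.63%, and each interval of the microRNA genes took in the value of its tiles. The 4 genes that lay farther were MIR159a, MIR166g, MIR168a and MIR405a.

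**Figure D5:**
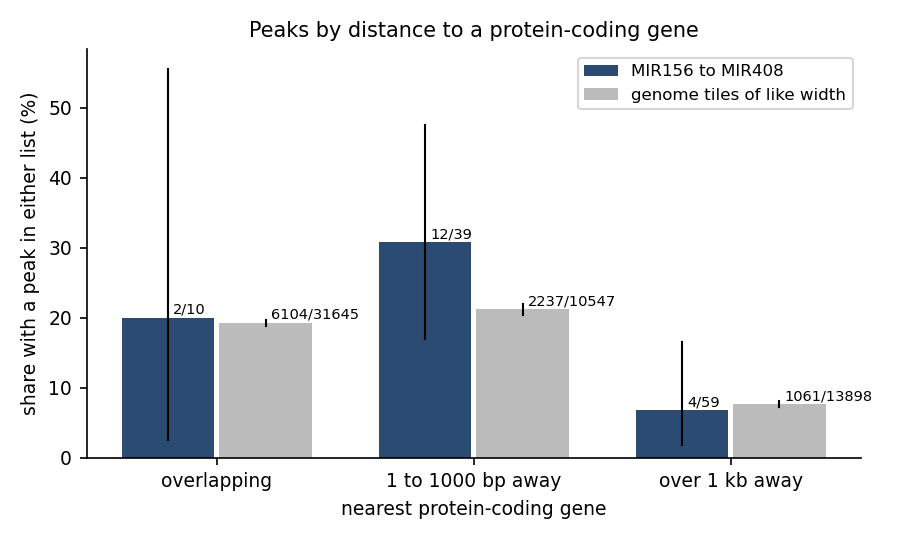
Share with a peak in either list (%, y axis) by position relative to the nearest protein-coding gene, for MIR156 to MIR408 (dark) and for genome tiles of like width (grey), with exact 95% binomial intervals and counts. The microRNA genes over 1 kb from a protein-coding gene have the lowest share, 6.78%, beside 7.63% of tiles.

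The known targets of these families were looked at with the same rule. Of 86 target genes, 5 of them noncoding TAS genes, 17 had a peak with glucose (19.8%, 12.0 to 29.8) and 24 without (27.9%, 18.8 to 38.6), close to the protein-coding shares of 18.1% and 25.5%. The highest no-glucose scores were at AP2 (67.8 with glucose and 706 without), the floral factor targeted by miR172, and at TAS3A (130 and 648), the precursor that miR390 cuts to make small RNAs against auxin response factors. TOE3, related to AP2, followed at 524 without glucose alone. All 3 targets of miR160 had a no-glucose peak, ARF16 (233 and 384), ARF10 (189) and ARF17 (112). Of the auxin receptor genes targeted by miR393, TIR1 (66.9 and 413), AFB2 (49.0 and 364) and AFB3 (115, no glucose) had one and AFB1 had none. None of the 11 SPL genes targeted by miR156 had a peak in either list.

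Targets with a peak were found in families without one at the microRNA gene as well as in families with one. In the 10 families with a peak at a microRNA gene, 10 of 41 targets had a peak in either list (24.4%), and in the 13 families without, 18 of 45 (40.0%). The share over all protein-coding genes, 29.7%, lies between them, and the difference was not tested. AGO1, the target of miR168, had none, nor had the laccase and plantacyanin targets of miR397 and miR408, nor PHO2. CSD1, a target of miR398, had a low no-glucose peak of 110. MYB65, a target of miR159, had a low glucose peak of 33.5.

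A list of 21 genes of microRNA production and action also held genes of microRNA turnover (SDN1, HESO1) and of related small RNAs (DCL4, RDR6, SGS3). Of the 21, 1 had a peak in each list (4.76%, 0.12 to 23.8), beside 18.1% with glucose and 25.5% without over protein-coding genes. The interval takes in the glucose value and ends below the no-glucose one. These genes were chosen with earlier results known, and the difference was not tested. The gene was SE, which encodes the zinc-finger protein SERRATE that helps DCL1 cut precursors, at 31.3 with glucose and 393.2 without. DCL1, HYL1, HEN1, HST, AGO1 and AGO2 were among the 20 without. DCL1, AGO1 and AGO2 also stand among the targets above.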

How the data were processed

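The submitters' processing notes name FastQC, BWA (0.7.15-r1140) and the genome build TAIR10. Per the file headers, MACS called the peaks without its local background, and for glucose without a shift model and with a threshold of 0.001. The deposited value of each peak is the authors' score, whose range fits a multiple of minus log10 of p. Each list rests on 1 precipitate and 1 input.

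Genes came from the RefSeq table of TAIR10.1, restricted to the 5 nuclear chromosomes. A gene had a peak if the peak overlapped it or its 1 kb flanks by at least 1 bp. Peak starts were read as 1-based. Percentiles are mid-ranks within a list. Python 3.11.15, numpy 2.4.6, pandas 2.3.3, scipy 1.17.1 and matplotlib 3.10.9 were used, and the counting was checked on planted peaks. No test was run, since each group has 1 library; exact binomial intervals treat genes as independent.

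The genes and the target and pathway lists, from textbook knowledge, were chosen with earlier results of these data known. Every microRNA gene with a peak was named. The planned sequences and motifs were not analysed here. Alternatives were other flanks, centres, score and width limits, merging, stricter sharing, and removal of gene-poor windows (fewer than 100 protein-coding genes per 1 Mb) and of chromosome 2 from 3 to 4 Mb.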

Additional observations from a re-analysis of the deposited data

How the results depend on the processing

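Flanks of 500 bp or 2 kb, merging of peaks within 200 bp and removal of gene-poor windows left each count of genes or families within 1.5 times its reported value, and so did counting by centre. A minimum score of 100 in both lists left 2 of 12 glucose genes, and 2 in both lists. Peaks above the median score left 3 of 14 no-glucose genes, 2 in both lists, 9 of 14 families and 0 of 3 genes with a peak free of protein-coding genes. Equal numbers of peaks left 6 no-glucose genes and 5 in both lists, and peaks no wider than the median left 2 glucose genes and 1 in both. Of the 8 genes in both lists 4 had centres within 250 bp and 8 had peaks with 50% reciprocal overlap. Only 1 gene, MIR159a, had a peak free of protein-coding genes and their 1 kb flanks. Without flanks the microRNA gene itself was touched at 10 no-glucose genes. The genes touched in either list fell in 10 families, and 2 of these genes had a peak free of protein-coding genes. With starts also counted from 0, an alternative chosen after seeing the data, these counts were 9, 9 and 1, each lower by MIR399c alone.

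Where an alternative left peaks out, percentiles were taken anew among the peaks kept and are not ranks in the whole list. The median glucose percentile of 53.0 was 32.1 among peaks above the median score, 62.3 at a score of 100 or more and 46.9 among narrower peaks. The no-glucose median of 28.8 was 37.5 with 2 kb flanks, 36.4 by centre and without flanks, 36.7 above the median score, 19.2 at equal numbers, 37.8 among narrower peaks and 44.1 without flanks and with starts from 0. It stayed below 50 under each, by ranks among the peaks that each alternative kept. No paired analysis was possible because each group has 1 library, and no replicate could be left out. Depth is unknown.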

Other observations

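Just beyond 1 kb, 8 more microRNA genes had a peak within 2 kb. The share of tiles or other genes with a peak at that reach was not counted, so this number has no background beside it. The highest was at MIR172e, of the family that times flowering through AP2-like factors, where a peak over AT5G59490 and AT5G59500 scored 106 with glucose and 434 without and began or ended 1873 and 1823 bp away. MIR164b, of the family that targets NAC genes such as CUC2, had a no-glucose peak of 246 at 1082 bp, over AT5G01750. MIR156c had peaks of 31.2 and 171.3 over GPX7 and AT4G31875, and MIR393a a no-glucose peak of 222 over PROT1, 1953 bp away. MIR165a (106), MIR166a (111) and MIR171a (134) had a no-glucose peak and MIR402 a glucose peak of 44.1. Of these peaks that at MIR166a touched no protein-coding gene.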
